A study of Homo sapiens with 4 samples.

Results

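NF-κB is a family of dimeric transcription factors that is held inactive in the cytoplasm and enters the nucleus when cells meet inflammatory signals. The accessible regions at 10 loci of this system were taken from ATAC-seq, an assay that marks open chromatin by where a transposase can insert sequencing adapters. NFKB1, NFKB2, REL, RELA and RELB encode the 5 DNA-binding subunits. NFKBIA, NFKBIZ, TNFAIP3 and BCL3 are NF-κB-inducible genes whose products restrain or modify the factor, and ICAM1, a cell-surface adhesion molecule that leukocytes bind, is a classical target. A locus was the GENCODE gene body with 10 kb before it on GRCh38, and a region was a set of peaks of the 4 lists that share at least 1 bp. The 10 loci held 26 of the 93211 regions.

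HK1, a cell line from a nasopharyngeal carcinoma, was used either unmodified (WT) or with FLI1 knocked out by a guide RNA (FLI1-KO, labelled sgFLI1). Cells of each genotype were left untreated as the control or given the cytokine interferon-γ (IFN-γ), which made 4 groups of 1 library each. The libraries were WT and WT-IFN-γ from unmodified cells, then sgFLI1 and, with treatment, sgFLI1-IFN-γ, and sets of 4 values keep that order. FLI1 is a transcription factor of the ETS family, and the sources used here do not say whether the knockout cells were a single clone. The spread between cultures was not measured, so no test between groups was run. Intervals are 95% counting intervals within the libraries, and the 4 comparisons between libraries share libraries with each other.

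The deposited lists held 59629, 67470, 63203 and 59923 peaks. Accessibility was measured as the summit pileup, the whole number of tags over a peak's summit, recovered from its deposited fold and −log10 p. A normalised pileup is that number divided by the library's tag density, which was 8.04, 8.84, 6.93 and 6.86 tags per kb. A peak could enter the list with as few as 8 tags in both WT libraries and 7 in both FLI1-KO libraries. Absence from a list means that no peak passed its limit, not an accessibility of 0. Of 6 epithelial marker genes, 4, 3, 4 and 3 had a peak within 1 kb of the start site, with none at TP63 or GRHL2 in any library. CD14 was the only 1 of 6 blood cell marker genes with such a peak, in all 4 libraries. A peak list does not show whether FLI1 itself was deleted.

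NF-κB dimers bind κB sites, short elements that begin with a run of G and end with a run of C. Several genes of the system carry such sites in their own promoters, which is the basis of the known feedback by which NF-κB induces its inhibitors and its precursors. The NFKB consensus was searched on both strands of the 26 regions. It was found in 14 regions, at 9 of the 10 genes and in 8 of the 10 regions that cover a canonical start site. The share of all regions with a match anywhere in them was not computed, so these counts stand without a background. The start-site regions were 703 to 1953 bp wide, and a wider region has more room for a match. Matches near the summits are set beside all regions further below. RELA had no match in either region, and the region at the ICAM1 start had none. To show the letters behind this count, the match nearest to the canonical start site in the start-site region of each of the other 8 genes is given on the gene's strand in 30 bases of GRCh38, with the match in capitals.
NFKB1, centre 45 bp upstream, chr4:102501300-102501329: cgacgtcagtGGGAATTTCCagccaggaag
NFKB2, centre 17 bp upstream, chr10:102395674-102395703: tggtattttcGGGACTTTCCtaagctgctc
REL, centre 42 bp upstream, chr2:60881518-60881547: gtcagccgcgGGAAATTCCCctcccgccag
RELB, centre 55 bp upstream, chr19:45001395-45001424: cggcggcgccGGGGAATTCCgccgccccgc
NFKBIA, centre 76 bp upstream, chr14:35404811-35404840: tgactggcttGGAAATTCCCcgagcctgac
NFKBIZ, centre 235 bp upstream, chr3:101849265-101849294: gcgcgctgtcGGGGTTTCCCggtgaagggc
TNFAIP3, centre 51 bp upstream, chr6:137867194-137867223: aaagtcccgtGGAAATCCCCgggcctacaa
BCL3, centre 6 bp downstream, chr19:44748700-44748729: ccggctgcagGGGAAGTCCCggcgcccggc

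The ICAM1 promoter, the TNFAIP3 intron and the RELB intron held the peaks that were listed in treated libraries and absent from both untreated lists at a −log10 q of at least 5, and their sequences are therefore given in more length, on the plus strand, which is the strand of these genes. For ICAM1, 223 bases before the first exon were taken from the RefSeq promoter table (GRCh38.p14). The capitals mark the match to GGANNTTCC, a shorter κB form, 182 bp upstream of the canonical start, and the match to TTCNNNGAA, the gamma-activated sequence (GAS), 71 bp upstream. The other windows are 201 bases of GRCh38 centred on the summit, with matches to the NFKB consensus, GGANNTTCC or the AP1 element TGANTCA in capitals.
ICAM1 promoter, chr19:10270870-10271092: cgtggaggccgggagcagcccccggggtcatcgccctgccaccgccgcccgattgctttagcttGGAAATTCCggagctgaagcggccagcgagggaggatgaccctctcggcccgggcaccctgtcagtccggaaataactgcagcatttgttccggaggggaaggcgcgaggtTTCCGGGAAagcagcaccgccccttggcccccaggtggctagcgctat
TNFAIP3 intron 2, chr6:137873374-137873574: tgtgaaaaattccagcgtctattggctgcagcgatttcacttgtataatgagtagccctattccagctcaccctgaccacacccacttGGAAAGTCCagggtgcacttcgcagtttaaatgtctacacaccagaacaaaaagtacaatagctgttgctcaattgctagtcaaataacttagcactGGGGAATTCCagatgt
RELB intron 4, chr19:45017025-45017225: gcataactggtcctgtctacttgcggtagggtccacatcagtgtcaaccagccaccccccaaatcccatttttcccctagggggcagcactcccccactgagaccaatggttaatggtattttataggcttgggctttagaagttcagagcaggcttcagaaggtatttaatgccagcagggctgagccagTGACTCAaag

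Of the 26 regions, 15 (57.7%) were in all 4 lists, against 43.9% of all regions. These were the start-site regions of 9 genes, which excludes ICAM1, and 6 others at NFKB2, NFKBIA, BCL3 and ICAM1. Every locus contains a start site by its definition, and no share of all regions matched for this was computed. The loci held 20, 22, 20 and 17 peaks. NFKB1 had 3, 2, 2 and 1 of them, NFKB2 3, 3, 3 and 2, and REL 1 in each library. RELA and RELB each had 2 peaks in WT-IFN-γ and 1 in the other libraries. NFKBIA had 2 in each library, NFKBIZ 2, 2, 3 and 2, TNFAIP3 2, 2, 1 and 1, BCL3 4 in each and ICAM1 1, 2, 2 and 2.

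**Figure D1:**
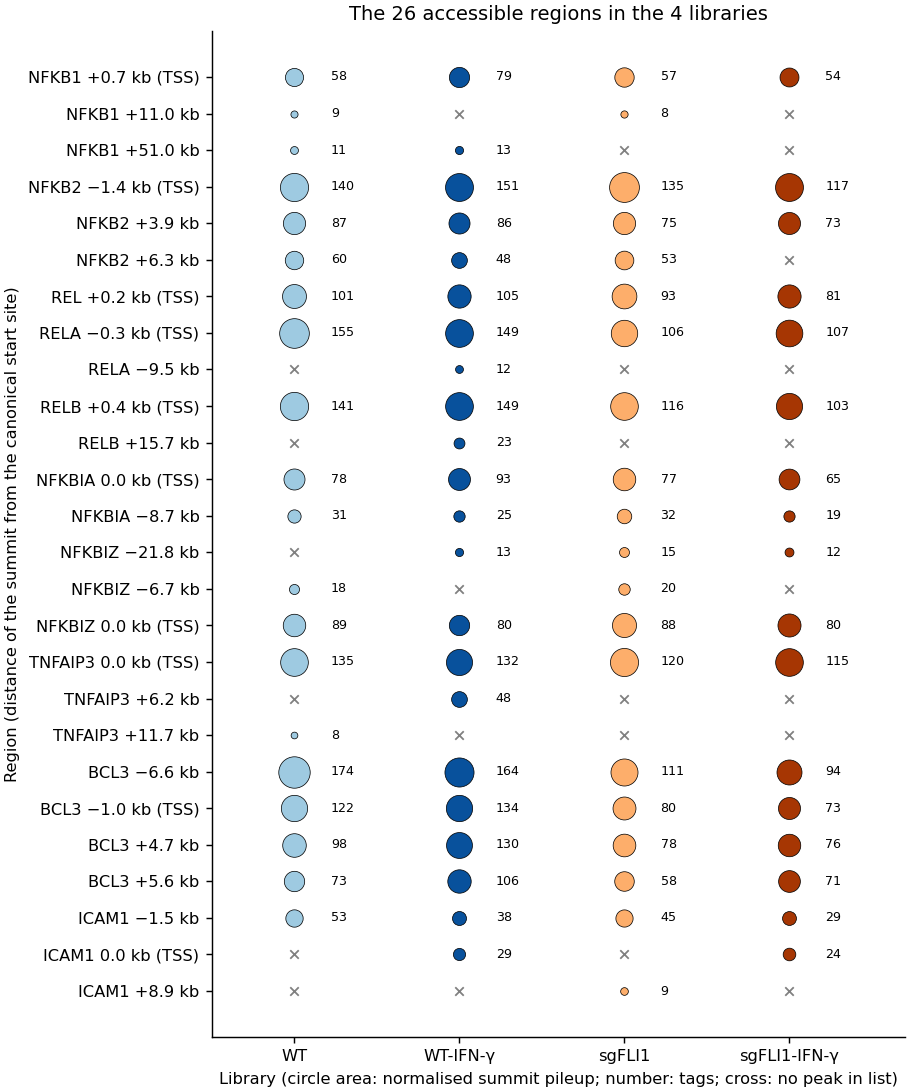
Each row is 1 of the 26 regions, named by its gene and the distance of its summit from the canonical start site, with (TSS) where it covers that site, and each column is 1 library. Circle area is the normalised summit pileup, the number is the tag count and a cross marks a region without a peak in that list. The 15 regions present throughout include the start sites of every gene but ICAM1, whose start-site region has circles in the IFN-γ-treated columns only.

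At the subunit genes, the start sites were open in every library at levels that differed little between libraries. NFKB1 encodes the precursor p105 and its product p50, and its start-site region had normalised pileups of 7.21, 8.94, 8.22 and 7.87. NFKB2 encodes p100 and p52 of the non-canonical pathway, and its values were 17.4, 17.1, 19.5 and 17.1. The NFKB2 summit lay 1250 to 1442 bp before the canonical start, inside the same region. REL, whose product c-Rel is best known from lymphocytes, had 12.6, 11.9, 13.4 and 11.8. RELA encodes p65, the main transactivating subunit, with 19.3, 16.9, 15.3 and 15.6. RELB encodes the partner of p52, with 17.5, 16.9, 16.7 and 15.0. The intervals overlapped between all 4 libraries for each of these 5 genes. In untreated WT, RELA stood at percentile 87.3 of the coding genes with a promoter peak and NFKB1 at 21.4.

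The feedback genes were likewise open before treatment. NFKBIA encodes IκBα, which holds NF-κB in the cytoplasm, and its start-site region had normalised pileups of 9.70, 10.5, 11.1 and 9.48. NFKBIZ encodes the nuclear protein IκBζ, and its values were 11.1, 9.05, 12.7 and 11.7. TNFAIP3 encodes A20, a ubiquitin-editing enzyme that dampens signalling to NF-κB, with 16.8, 14.9, 17.3 and 16.8. BCL3, an IκB family protein that acts with p50 or p52 in the nucleus, had 15.2, 15.2, 11.5 and 10.6. The BCL3 values were lower in both FLI1-KO libraries than in both WT libraries, with intervals that overlapped. Over the 9 members other than ICAM1, each with a peak within 1 kb of the canonical start in all 4 lists, the median promoter pileup was 15.2, 14.9, 13.4 and 11.8, beside 12.1, 11.3, 12.0 and 10.9 over all coding genes with one.

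**Figure D2:**
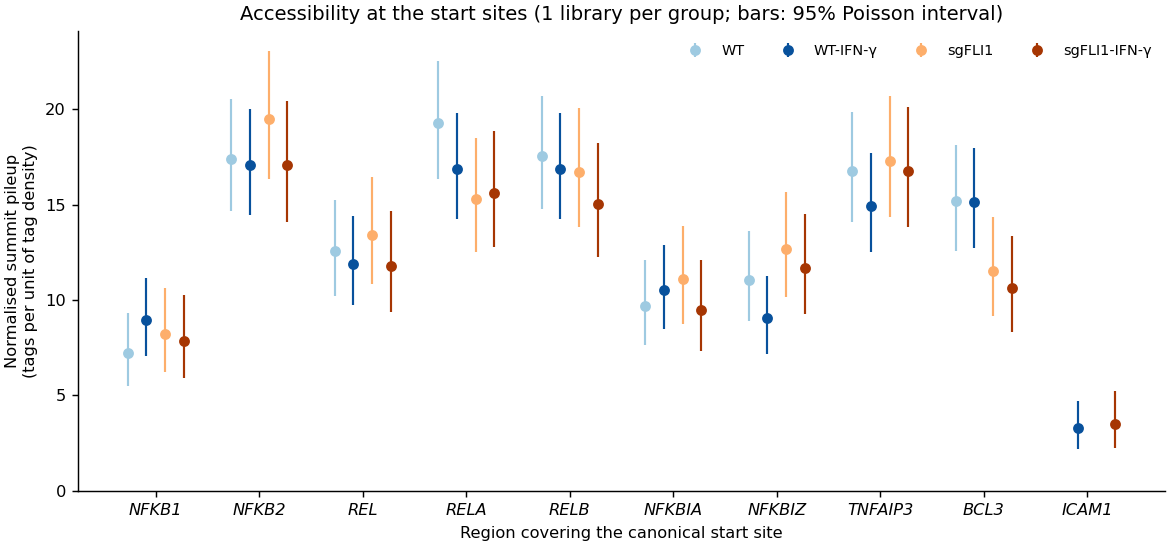
Normalised summit pileup (tags divided by tags per kb) of the region covering each gene's canonical start site, with 1 point per library and its 95% Poisson interval. ICAM1 has points at 3.28 in WT-IFN-γ and 3.50 in sgFLI1-IFN-γ and no peak in the untreated libraries, and the other 9 genes have a point in every library.

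ICAM1 was the locus at which both genotypes gained a peak with IFN-γ. A region of 703 bp over the start site (chr19:10270847-10271549) held 29 tags in WT-IFN-γ and 24 in sgFLI1-IFN-γ, with no peak in WT or sgFLI1. The normalised pileups were 3.28 (2.20 to 4.71) and 3.50 (2.24 to 5.21), and the FLI1-KO over WT ratio was 1.07 (0.594 to 1.90). At the level of WT-IFN-γ, 26.4 tags would be expected in WT, where 15 sufficed for the list, and 22.8 in sgFLI1, where 13 did, with the background scaled from WT-IFN-γ. Both expected values exceeded what the untreated lists required. Expected tags, here and below, are scaled from the library with the strongest peak of the region. They therefore lean high, carry no interval and are not a test of a difference. Of all regions, 1624 (1.74%) had this pattern of presence in both treated lists only. By −log10 q, which was 8.82 and 6.97, the ICAM1 region took place 586 of the 1624 in WT-IFN-γ and place 294 in sgFLI1-IFN-γ. Among coding genes with a promoter peak its pileup stood at percentile 7.5 and 7.6, the lowest of the 10 genes in both libraries.

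The WT-IFN-γ summit lay 48 bp before the ICAM1 start and 23 bp from the GAS match. The sgFLI1-IFN-γ summit lay 103 bp after the start. The GGANNTTCC match was 134 bp from the WT-IFN-γ summit. Among 34961 RefSeq promoter windows, 7.66% held a GAS match and 4.57% a GGANNTTCC match in the 250 bases before the start.

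A second ICAM1 region lay 1.5 kb upstream (chr19:10269210-10270166) and was in all 4 lists. It held 53, 38, 45 and 29 tags, or normalised pileups of 6.59, 4.30, 6.49 and 4.23. Both treated libraries were lower than both untreated libraries, while the genotypes stood side by side. The treated over untreated ratio was 0.653 (0.419 to 1.01) in WT and 0.651 (0.394 to 1.06) in FLI1-KO cells, past the 1.5-fold limit used for shared regions, with intervals that included 1. When the libraries were scaled by the median ratio of all shared regions the ratios were 0.685 and 0.716, inside the limit. In both genotypes the upstream region was thus lower in the library in which the start-site region was listed. The 201 bases around the upstream summit, shown for comparison with the promoter, hold a GGANNTTCC match in capitals.
ICAM1 upstream, chr19:10269505-10269705: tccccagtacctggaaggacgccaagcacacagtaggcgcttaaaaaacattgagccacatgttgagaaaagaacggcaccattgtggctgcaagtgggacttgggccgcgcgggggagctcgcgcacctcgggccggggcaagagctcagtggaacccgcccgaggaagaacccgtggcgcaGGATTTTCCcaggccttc

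A further ICAM1 peak of 9 tags in intron 2, 8.9 kb after the start, was in the sgFLI1 list only and had a −log10 q of 2.72.

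TNFAIP3 had the strongest peak of the loci that was in 1 list only. In its intron 2, 6.2 kb after the start (chr6:137873345-137873704), WT-IFN-γ held 48 tags (35.4 to 63.6), a normalised pileup of 5.43, and no other list had a peak. The level of WT-IFN-γ would give 43.7, 37.7 and 37.3 tags in WT, sgFLI1 and sgFLI1-IFN-γ, where 12, 11 and 11 sufficed. Its −log10 q of 29.7 was place 75 of the 10854 regions in the WT-IFN-γ list alone. The printed window holds a GGANNTTCC match 8 bp from the summit and an NFKB match 89 bp from it. The TNFAIP3 start-site region, at 135, 132, 120 and 115 tags, differed between treated and untreated libraries by ratios of 0.890 (0.695 to 1.14) in WT and 0.968 (0.743 to 1.26) in FLI1-KO cells. Another TNFAIP3 peak, in exon 7, had 8 tags in WT alone, and no other library would be expected to reach its own limit there.

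RELB showed the same pattern at lower strength. Its intron 4, 15.7 kb after the start (chr19:45016600-45017245), held 23 tags (14.6 to 34.5) in WT-IFN-γ and no peak elsewhere, where 20.9, 18.0 and 17.9 tags would be expected in WT, sgFLI1 and sgFLI1-IFN-γ and 8 sufficed in each. The −log10 q of 13.0 was place 883 of the 10854. An AP1 match lies 94 bp from the summit, and the one NFKB match of the region lies 508 bp from it, outside the printed window. RELA had a weak upstream peak of 12 tags with this pattern, 9.5 kb before the start, with a −log10 q of 4.18. Together 3 of the 26 regions (11.5%) were in the WT-IFN-γ list only, as were 11.6% of all regions.

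**Figure D3:**
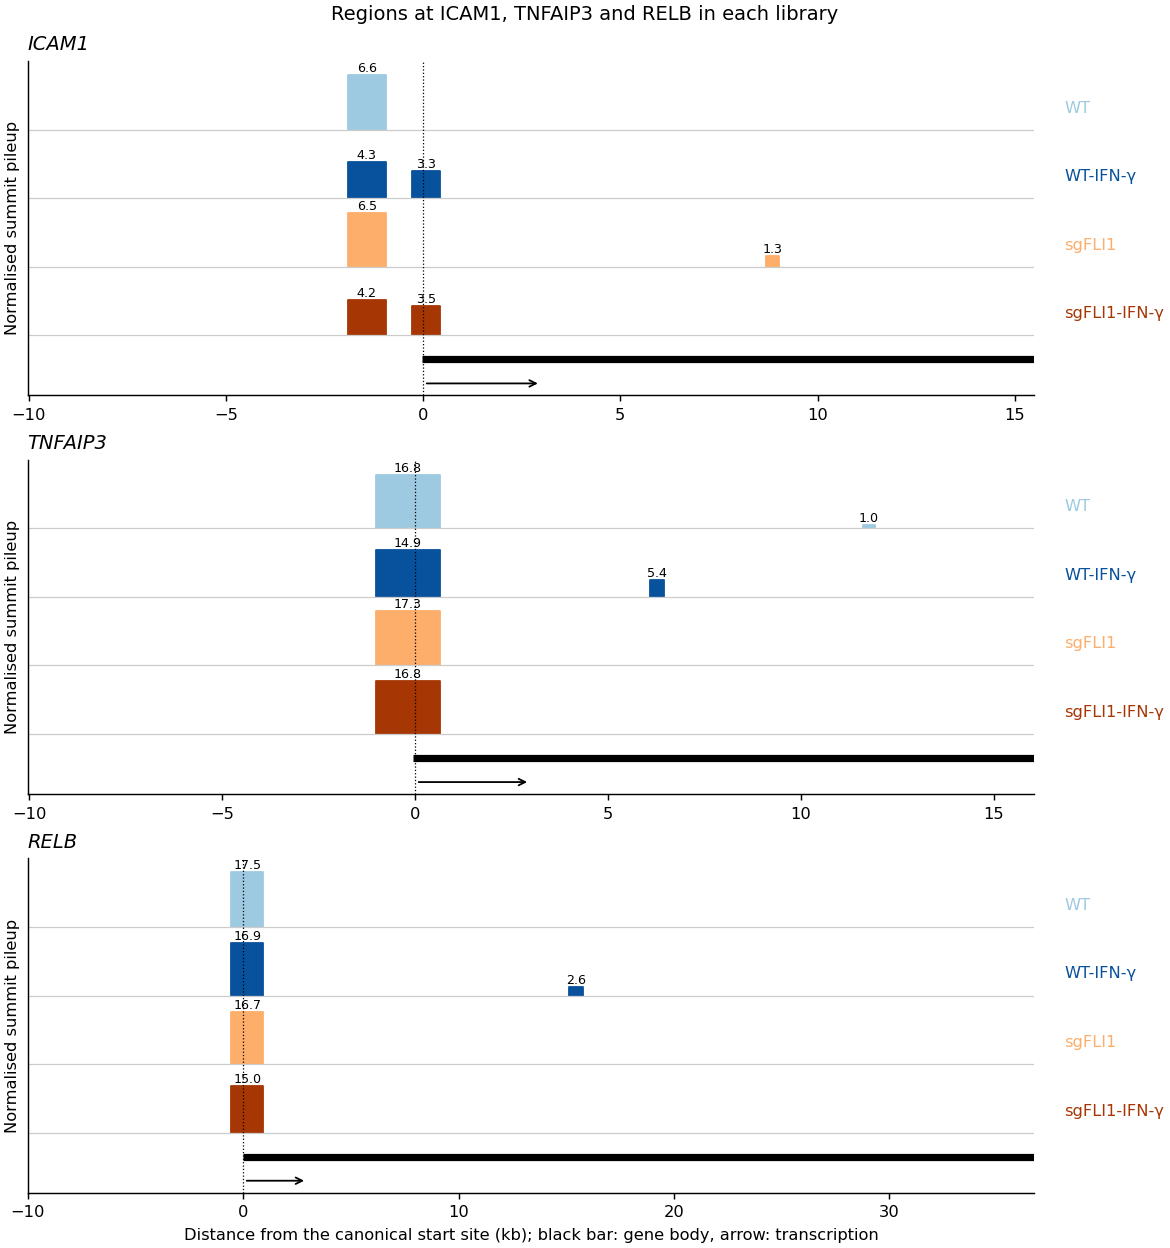
Blocks are the merged regions at ICAM1, TNFAIP3 and RELB by distance from the canonical start site in kb, 1 row per library, with the height and the number giving the normalised summit pileup. The height scale is set within each panel, the black bar is the gene body and the arrow the direction of transcription. The start-site block of ICAM1 is present in both treated rows, and the intron blocks of TNFAIP3 (5.4) and RELB (2.6) in the WT-IFN-γ row alone.

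Other regions differed in presence between the lists at NFKBIZ, NFKB2 and NFKB1. Just before the alternative, upstream start of NFKBIZ, with the strongest summit 21.8 kb before the canonical start, peaks of 13, 15 and 12 tags were in the last 3 libraries. None was in WT, although 17.4 would be expected at the sgFLI1 level and 8 sufficed. The region ends 1 bp before the NFKBIZ gene and lies in the body of another coding gene, NXPE3. This region holds an NFKB match 21743 bp before the canonical start and 42 bp from the sgFLI1 summit. The WT-IFN-γ and sgFLI1-IFN-γ summits lay farther from it, 21978 and 22120 bp before that start. The match is shown here in capitals.
NFKBIZ alternative start, chr3:101827757-101827786: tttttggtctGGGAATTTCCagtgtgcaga

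The NFKBIZ region 6.7 kb before the canonical start, also in the body of NXPE3, had 18 tags in WT and 20 in sgFLI1. It had no peak in either treated list, where 25.5 would be expected in WT-IFN-γ and 19.8 in sgFLI1-IFN-γ and 8 and 7 sufficed. Both untreated lists without either treated one was the pattern of 2 of the 26 regions and of 1.3% of all regions. The other was in intron 1 of NFKB1, with 9 and 8 tags, close to the limits of the lists. An intron 21 region of NFKB2 had 60, 48 and 53 tags in the first 3 libraries and was absent from sgFLI1-IFN-γ, where 51.2 would be expected at the WT level and 26 sufficed. NFKB1 intron 5 had 11 tags in WT and 13 in WT-IFN-γ with no peak in FLI1-KO cells.

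Counted over all loci, member peaks listed on one side of a comparison were as follows. With IFN-γ in WT, 5 of 22 peaks were gained, at RELA, RELB, NFKBIZ, TNFAIP3 and ICAM1, beside 25.2% of all peaks, so that 5 of 10 genes had a gain, beside 32% of coding genes. In the same cells 3 of 20 were lost, beside 15.9% of all peaks. They lay at 3 of the 10 genes, NFKB1, NFKBIZ and TNFAIP3, beside 21.5% of coding genes. In FLI1-KO cells, the ICAM1 start site was the 1 gained peak of 17, beside 18% of peaks and 22.9% of coding genes. There 4 of 20 were lost, beside 22.2% of all peaks. They lay at 4 of the 10 genes, NFKB1, NFKB2, NFKBIZ and ICAM1, beside 28% of coding genes. Without treatment, 2 of 20 sgFLI1 peaks were in FLI1-KO only, at NFKBIZ and ICAM1, against 25.3% of all, and 2 of 20 WT peaks in WT only, at NFKB1 and TNFAIP3, against 21.4%. By gene these were 2 of 10 in each direction, beside 29.2% and 26.6% of coding genes. With IFN-γ, 0 of 17 were in FLI1-KO only, against 19.8%, and 5 of 22 in WT only, against 29%. Those 5 were at 5 of the 10 genes, NFKB1, NFKB2, RELA, RELB and TNFAIP3, beside 35.1% of coding genes, and 0 of the 10 had a peak in FLI1-KO only, beside 23.6%. In each of these 8 counts the members' share of peaks was below that of all peaks, in some by little. By gene their share was above that of coding genes in 4 counts and below it in the other 4. The 8 counts share libraries and are not independent. Of the 26 member regions, 13 had their summit within 1 kb of an annotated coding start, and no share matched for this was computed.

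Where both lists had a peak, IFN-γ was accompanied by small differences in pileup. In WT, 0 of 17 shared regions were at least 1.5-fold higher with IFN-γ, against 6.1% of all shared regions, and 1 of 17 at least 1.5-fold lower, the upstream ICAM1 region, against 7.19%. In FLI1-KO cells, 0 of 16 were higher, against 2.45%, and 2 of 16 lower, against 6.87%. These were the upstream ICAM1 region and the region 8.7 kb before NFKBIA. The shares over all shared regions were not matched for pileup. The median pileup of all peaks was 31, 30, 27 and 26 tags, and most shared member regions held more. A region with few tags passes 1.5-fold more readily by counting error, so the members' low counts are not a sign of stability. The NFKBIA region had 31, 25, 32 and 19 tags, with a treated over untreated ratio of 0.734 (0.415 to 1.28) in WT and 0.600 (0.321 to 1.09) in FLI1-KO cells. The members' median log2 ratio was −0.08 in WT and −0.14 in FLI1-KO cells, beside −0.07 and −0.14 over all shared regions. Of the 15 regions in all lists, 10 were lower with IFN-γ in both genotypes, 1 was higher in both and 4 differed in sign. Relative to the median of all shared regions, 4 were lower in both, 4 higher in both and 7 split. The region higher in both before that scaling was the BCL3 intron 2 region 5.6 kb after the start, with 73, 106, 58 and 71 tags and ratios of 1.32 (0.972 to 1.81) and 1.24 (0.862 to 1.78). Its neighbour 4.7 kb after the start had 98, 130, 78 and 76 tags. That neighbour holds a κB match 23 bp from the summit, shown because no other NFKB match in an intron lay closer to one.
BCL3 intron 2, chr19:44753438-44753467: tgcctgctggGGGAAATCCCttcccgcaga

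**Figure D4:**
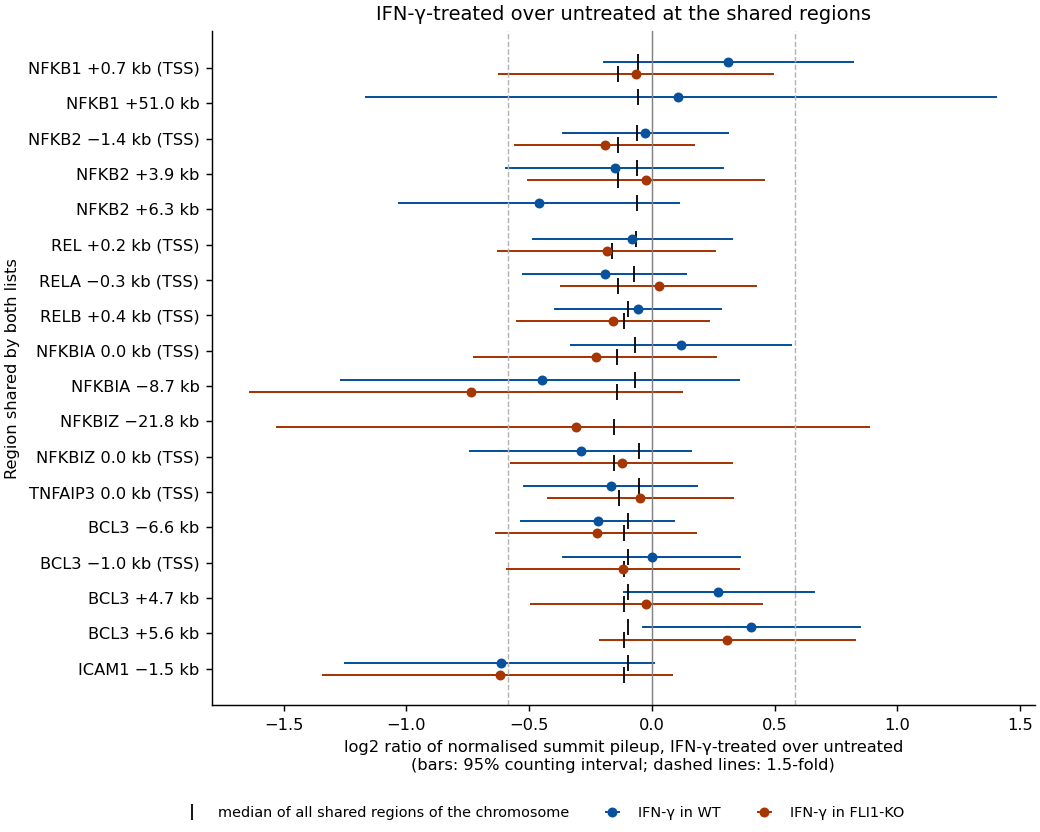
Points are log2 ratios of normalised summit pileup, IFN-γ-treated over untreated, at the member regions shared by both lists, with 95% counting intervals, in WT (blue) and FLI1-KO (brown) cells. Black ticks are the median of all shared regions on the same chromosome and dashed lines mark 1.5-fold. The upstream ICAM1 region lies to the left of the dashed line in both genotypes, at ratios of 0.653 and 0.651.

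On the tag density scale, the lowest FLI1-KO over WT ratios among the shared regions were at BCL3 in both treatments. The region 6.6 kb upstream of BCL3 (chr19:44741354-44742674) held 174, 164, 111 and 94 tags, the most of any member region in WT. Its FLI1-KO over WT ratio was 0.740 (0.578 to 0.945) without and 0.738 (0.567 to 0.957) with IFN-γ. The region over the BCL3 start held 122, 134, 80 and 73 tags and had ratios of 0.761 (0.567 to 1.02) and 0.702 (0.520 to 0.940). BCL3 lies on chromosome 19, on which the median log2 ratio of all shared regions was −0.18 without and −0.20 with IFN-γ, beside 0.05 and −0.02 over all chromosomes. Relative to that chromosome the BCL3 ratios were 0.838 and 0.848 at the upstream region and 0.861 and 0.806 at the start. On that scale they were not the farthest from 1, since the RELA start had 0.771 without treatment and the NFKBIZ start 1.28 with IFN-γ. The part of the chromosome-wide shift in the BCL3 values was not tested further. RELB and ICAM1 lie on the same chromosome and had ratios of 0.955 (0.740 to 1.23) at the RELB start and 0.985 (0.647 to 1.49) at the upstream ICAM1 region without treatment. With IFN-γ these were 0.891 (0.686 to 1.15) and 0.983 (0.585 to 1.64).

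By the 1.5-fold limit, none of the shared member regions was called between genotypes. Without treatment these were 0 of 18 higher in FLI1-KO, against 12.8% of all shared regions, and 0 of 18 lower, against 8.4%. With IFN-γ they were 0 of 17 higher, against 10.5%, and 0 of 17 lower, against 10.7%. As above, these shares were not matched for pileup, and most shared member regions held more tags than the median peak. The counts of 0 are therefore not a sign of stability. The RELA start site had a ratio of 0.794 (0.614 to 1.02) without and 0.925 (0.715 to 1.19) with IFN-γ. The NFKBIZ start site had 1.15 (0.845 to 1.56) and 1.29 (0.933 to 1.78). Over all members the median log2 ratio was 0.04 and −0.03, beside 0.05 and −0.02 over all shared regions.

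**Figure D5:**
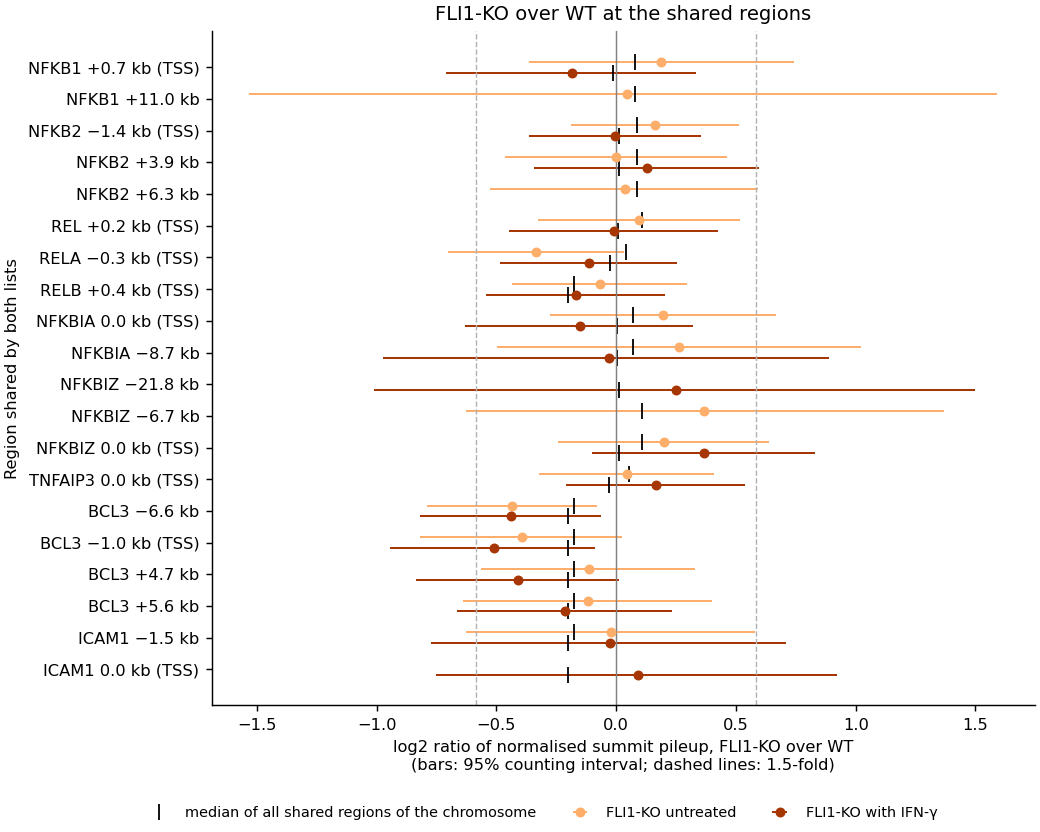
Points are log2 ratios of normalised summit pileup, FLI1-KO over WT, at the member regions shared by both lists, with 95% counting intervals, untreated (light) and with IFN-γ (dark). Black ticks are the median of all shared regions on the same chromosome and dashed lines mark 1.5-fold. The points of the regions upstream of and at the BCL3 start lie farthest to the left, at ratios of 0.740 and 0.738 for the upstream region, and the chromosome 19 ticks lie below 0.

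κB matches were next searched near the summits. Here and for the other motifs, a region's summit was that of the library with the most tags in it. Summits of the other libraries can lie farther from a match, and counts by them were not made. The counted NFKB2 match lay 1513 bp before the start, and the summits 1250, 1442, 1305 and 1375 bp before it. At NFKBIA the match lay 76 bp before the start, and the summits 4, 2, 64 and 131 bp after it. Within 100 bp of the summit, 6 of the 26 regions (23.1%) had an NFKB match, against 3.64% of all 93211 regions, and 6 had a GGANNTTCC match, against 2.83%. Matches to both forms overlapped near the summits of NFKBIA, the region before the alternative NFKBIZ start and the TNFAIP3 start. The share was 4 of 13 among members within 1 kb of an annotated start, against 4.6% of all such regions, and 2 of 13 among the others, against 3.43%. The member regions were richer in G and C, with a median of 61.7% against 49.8% over all regions, and the part of this in the κB counts was not tested. TTCNNNGAA was near 3 of the 26 summits (11.5%), against 6.57%, and TGANTCA near 4 (15.4%), against 22.6%. Within 1 kb of an annotated start, TTCNNNGAA was at 2 of 13 members, against 4.53%, and TGANTCA at 1 of 13, against 8.71%. Among the others TTCNNNGAA was at 1 of 13, against 7.01%, and TGANTCA at 3 of 13, against 25.6%. The IRF form GAAANNGAA and the ETS form CCGGAAGT, the latter bound by the family to which FLI1 belongs, were near none of the 26, against 8.02% and 0.988%. Among all regions within 1 kb of an annotated start the IRF and ETS shares were 5.16% and 4.22%, and among the others 8.65% and 0.276%. A match is a description of the letters and not a measured binding site.

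Other genes of the pathway were read by whether their window held a gained or lost peak. With IFN-γ in WT, a peak was gained at 12 of 30 upstream receptors, adaptors and kinases, 1 of 11 inhibitors, 5 of 30 targets and 1 of 4 other ICAM genes, beside the 32% of coding genes given above, and lost at 5, 3, 3 and 0 of them, beside 21.5%. CD40, a receptor of the TNF family, had 36 tags 6.8 kb upstream in WT-IFN-γ and had no peak there in the other lists. TRAF3, an adaptor that restrains the non-canonical pathway, had 23, 14 and 10 tags inside the gene in WT-IFN-γ and the FLI1-KO libraries, and MALT1, a paracaspase of the pathway, had 21, 13 and 11, with no peak in WT at either. PLAU, the urokinase gene, had 26 tags in WT-IFN-γ alone. SOD2 (42 tags) and SDC4 (50 tags) passed the limit with regions that lie nearest to the starts of WTAP and SYS1. The lost regions with a −log10 q of at least 10 were at VCAM1, an adhesion molecule like ICAM1, with 19 tags in WT alone, and at NFKBIE, an inhibitor. The NFKBIE region lies nearest to the start of TMEM151B and had 50 tags in WT, 27 in sgFLI1 and 33 in sgFLI1-IFN-γ.

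In FLI1-KO cells, a peak was gained with IFN-γ at 7 of 30 upstream genes, 0 of 11 inhibitors, 3 of 30 targets and 0 of 4 other ICAM genes, beside 22.9% of coding genes, and lost at 8, 2, 6 and 3, beside 28%. The ICAM genes with a loss were ICAM3, ICAM4 and ICAM5. Windows of neighbouring genes can overlap, so in all counts by gene the same peak can count at several genes. None of the gains reached a −log10 q of 10. The losses that did were at IRAK1, RBCK1, TAB2 and BCL2L1. IRAK1, a kinase of interleukin-1 signalling, had 39, 42 and 29 tags in WT, WT-IFN-γ and sgFLI1, and RBCK1, a subunit of the linear ubiquitin ligase, had 44, 48 and 35. BCL2L1, a survival gene, had 49, 44 and 33. All 3 regions were absent from sgFLI1-IFN-γ only, like the NFKB2 intron region described above, a pattern of 3.04% of all regions. TAB2 had 18 tags in sgFLI1 alone. Between genotypes without treatment, 26 of the 75 genes of these lists (34.7%) had a peak in FLI1-KO only, beside 29.2% of coding genes. In WT only there were 15 (20%), beside 26.6%. With IFN-γ these were 16 (21.3%), beside 23.6%, and 22 (29.3%), beside 35.1%. A peak at the MYD88 start (61 and 90 tags) and one in TRADD (58 and 52 tags), both adaptors, were in the WT lists only. TRADD lies on chromosome 16, where the median log2 FLI1-KO over WT ratio was −0.24 without and −0.29 with IFN-γ. A region 6.6 kb upstream of TNFAIP2 was in the FLI1-KO lists only, with 47 and 40 tags, as was one at TNIP1, a partner of A20, with 29 and 21. Regions at ICAM2 (31 and 26 tags) and IKBKB (10 and 24 tags) were in the WT lists only. BIRC2 (47, 36 and 27 tags) and LTB (31, 21 and 17 tags) lacked a peak in sgFLI1 alone, and CARD10 (33, 60 and 59 tags) in WT-IFN-γ alone.

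At the edge of the 10 kb rule, the member farthest upstream of a gene was the RELA peak, 9071 bp before the gene, and the nearest regions outside lay 11638 bp before ICAM1, with 50, 47, 26 and 30 tags, and 11646 bp before RELB, with 24, 27, 20 and 14.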

How the data were processed

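ATAC-seq peak lists of HK1 cells, 1 per group, were used. The methods of the study and the submitters' processing notes give Trimmomatic, Bowtie2 (2.3.4.1) on GRCh38, removal of low-quality alignments and duplicates, and MACS2 (2.1.2). A reproducibility filter (IDR) is named, but whether a list holds single or pooled replicates, precedes that filter or was shifted for the transposase is not stated in the sources used here. In the deposited lists the authors gave each peak a score (not used), a fold enrichment over local background (a ratio), a −log10 p-value, a −log10 q-value (q up to 0.0499) and a summit offset.

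Pileup and background were recovered from fold and p under a Poisson model within 0.2%, in every peak but 1 of sgFLI1-IFN-γ. Tag density was the lowest background over the shortest peak. It compares libraries and is no read total. Intervals are exact Poisson for pileups and exact conditional binomial for ratios, at 95%, and cover counting error only. GENCODE 44 gave genes and start sites. Gained or lost meant sharing 0 bp with the other list, and regions in both lists were called at 1.5-fold. Expected tags scale the strongest library's pileup by tag density. Members and gene lists were chosen with earlier results of these data known. Other pathway genes were named where a gained or lost peak had a −log10 q of at least 10, and the sequences shown were picked after their values were seen. RefSeq promoter windows matched 9 of 10 members (not RELB). Alternatives were other windows, q limits, overlaps and scalings. The steps were tested on simulated data. Software was Python 3.11.15 (pandas 2.3.3, numpy 2.4.6, matplotlib 3.10.9, scipy 1.17.1).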

Additional observations from a re-analysis of the deposited data

Results flagged for a closer look

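The number of peaks at the 10 loci differed in direction between genotypes. It was higher by 2 with IFN-γ in WT (20 and 22 peaks) and changed by -3 in FLI1-KO cells (20 and 17 peaks). With 1 library per group this difference was not tested. The whole lists moved the same way, from 59629 to 67470 peaks in WT and from 63203 to 59923 in FLI1-KO cells.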

How the results depend on the processing

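Across 46 results, 146 values were recomputed, of which 126 kept within 1.5 times the reported count or within the counting interval. Some of these could not change, since a count of 0 stays 0 under a stricter fold, tag or q limit or a narrower motif window. The tally is therefore not a measure of robustness. Ratios were recomputed only for the upstream ICAM1 region with IFN-γ and, between genotypes, for the BCL3 regions and the RELA start. By chromosome median scaling 2 of these crossed 1 within their intervals, both FLI1-KO over WT without treatment. They were at the BCL3 regions 4.7 and 5.6 kb downstream of the start, from 0.924 to 1.045 and from 0.922 to 1.043. The others of this set stayed on their side of 1. Ratios outside the set also crossed 1 relative to their chromosome. Among them, FLI1-KO over WT without treatment, were the RELB start (0.955 to 1.08) and the upstream ICAM1 region (0.985 to 1.115). With windows of 50 kb either side the loci held 75 peaks in WT and in sgFLI1-IFN-γ and 78 in the other libraries. At a −log10 q of at least 5, the peaks gained and lost with IFN-γ were 3 and 1 in WT, and 2 were lost in FLI1-KO cells. The same limit left 1 peak in FLI1-KO only and 0 in WT only without treatment, and 3 in WT only with IFN-γ. With depth equalised to the shallowest library, chosen after seeing the data, 1 was in WT only without treatment. Among shared regions, those lower with IFN-γ were 0 in WT by genome median scaling, chromosome median scaling or a limit of 2. In FLI1-KO cells they were 1 by either scaling, 0 at the limit of 2 and 1 with at least 20 tags in both lists, chosen after seeing the data. Within 50 bp of the summit, 3 regions had an NFKB match and 1 an AP1 match. Each of these settings changes by construction which peaks, sites or regions are counted, or the scale. No paired analysis was possible because each group has 1 library. One library per group leaves the spread between cultures unmeasured, and peaks of 8 to 13 tags lie close to the lists' limits.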
